A study of Mus musculus with 31 samples.

Results

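This section describes 10 genes for inhibitory and checkpoint receptors of natural killer (NK) cells: Havcr2, Ctla4, Pdcd1, Lag3, Tigit, Cd96, Klrg1, Klrd1, Klrc1 and Cd200r1. They were taken as a named list, with each symbol matched to its Entrez identifier, out of 27179 genes in the count table. NK cells are innate lymphocytes that kill infected and tumour cells. RNA was sequenced from sorted mouse NK cells of 3 genotypes under 3 conditions, in 31 libraries numbered as biological replicates. Wild-type (WT) cells were measured unstimulated (4 libraries), after 4 h with the cytokine TGFB1 (2 libraries) and after 24 h with TGFB1 (4 libraries). Knockout cells were labelled TGFBRII KO, for the signalling receptor chain that binds TGF-β (gene Tgfbr2), with 3 libraries under each condition, or CIS KO, for CIS (gene Cish), a suppressor of cytokine signalling, with 4 libraries under each condition. TGFB1 is the first member of the TGF-β cytokines. The organ, strain, age and sex of the mice, the way the genes were deleted and the culture medium were not given in the sources used here. The sample titles give no time in culture for the unstimulated cells, so a response may include an effect of time in culture.

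NK cells decide between killing and tolerance by weighing signals from activating and inhibitory receptors. Many inhibitory receptors carry short tyrosine motifs in their cytoplasmic tails that recruit the phosphatases SHP-1 (Ptpn6), SHP-2 (Ptpn11) and SHIP-1 (Inpp5d), which switch off nearby activating signals. Several of them are targets of checkpoint antibodies, and TGF-β is a cytokine known to restrain NK cell function.

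Levels are in CPM, counts divided by library size scaled with TMM factors. Changes are on the log2 scale with their standard error, and calls require an adjusted p under 0.05 in edgeR's quasi-likelihood F-test over the 10275 genes with enough counts. Of the 10 receptors, 8 had enough counts to be tested and Pdcd1 and Klrc1 did not. The libraries held 297561 to 1403005 counts (median 736193), and a count of 3 over all libraries together corresponds to 0.133 CPM. In 40 comparisons of replicates within a group, the chi-square per degree of freedom ran from 0.772 to 6.32. CIS KO replicate 2 at 24 h, the deepest library, stood apart from the rest of its group. In 3 pairs (TGFBRII KO at 24 h replicates 1 and 3, unstimulated CIS KO replicates 2 and 3, and CIS KO at 24 h replicates 1 and 3) the libraries differed by less than the sampling noise and no gene differed. The chi-square was also under 1 in 6 other pairs in which single genes did differ. The libraries were kept apart because they are labelled as replicates, and these values cannot show whether the 3 pairs are independent samples. Results that change when each of the 3 pairs counts as 1 library carry that value.

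Transcript level set the 10 receptors far apart. Per kilobase of exon, Klrd1, which encodes CD94, was highest at a mean of 419 CPM, with single libraries between 242 and 704. Cd96 (134) and Klrg1 (133) followed, and their order was not stable, since Cd96 was above Klrg1 in 10 of 31 libraries. Havcr2 averaged 59.8 CPM per kilobase and was above Cd200r1 (43.2) in 24 of 31 libraries. Ctla4 averaged 16.2 and Tigit 10.8, with Ctla4 above in 22 of 31. Lag3 averaged 3.36, Klrc1 0.864 and Pdcd1 0.046. Klrd1 was above Cd96, Klrg1 above Havcr2, Cd200r1 above Ctla4 and Tigit above Lag3 in all 31 libraries.

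The promoter sequences of Havcr2, Ctla4 and Cd96 are shown because the mean levels of these genes moved together or in opposite directions over the 9 groups, as described further on. Each runs 5′ to 3′ from 250 bases before to 50 bases after the RefSeq start on GRCm38.p6 (the mm10 assembly), and capitals mark the SMAD-binding letters CAGAC or their reverse complement. Promoters were matched for 6 of the 10 receptors. Havcr2 lies at chr11:46454681-46454980 on the plus strand, Ctla4 at chr1:60908775-60909074 on the plus strand and Cd96 at chr16:46120199-46120498 on the minus strand.
Havcr2: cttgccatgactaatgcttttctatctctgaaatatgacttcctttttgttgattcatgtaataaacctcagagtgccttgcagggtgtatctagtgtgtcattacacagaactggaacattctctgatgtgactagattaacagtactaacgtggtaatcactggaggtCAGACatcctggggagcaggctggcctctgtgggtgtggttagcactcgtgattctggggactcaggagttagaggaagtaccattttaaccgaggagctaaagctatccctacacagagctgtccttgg
Ctla4: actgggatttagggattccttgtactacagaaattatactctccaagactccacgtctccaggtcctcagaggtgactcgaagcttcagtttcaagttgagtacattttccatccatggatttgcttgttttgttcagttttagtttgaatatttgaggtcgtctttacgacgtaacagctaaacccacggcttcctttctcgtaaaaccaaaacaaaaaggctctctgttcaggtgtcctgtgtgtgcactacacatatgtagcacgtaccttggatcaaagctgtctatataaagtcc
Cd96: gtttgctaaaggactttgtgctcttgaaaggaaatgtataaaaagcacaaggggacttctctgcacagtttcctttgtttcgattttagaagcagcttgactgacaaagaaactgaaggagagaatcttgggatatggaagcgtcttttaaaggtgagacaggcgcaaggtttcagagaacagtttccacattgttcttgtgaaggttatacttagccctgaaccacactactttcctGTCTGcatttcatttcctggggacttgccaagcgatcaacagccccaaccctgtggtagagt
CAGAC, searched on both strands, occurred 1 time in the Havcr2 window, starting at base -80, and 1 time in the Cd96 window, starting at base -12, and was not in the Ctla4 window. It is found in 49.6% of the 32851 mouse promoter windows of this length. The AP-1 letters TGANTCA, found in 7.81% of windows, started at base -200 of Havcr2 and were not in the other pair. The RUNX letters TGTGGT, found in 16.8% of windows, matched 1 time in Havcr2, 2 times in Cd96 and not in Ctla4. Such matches are letters in a window and were not tied to binding by any data used here.

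Havcr2 encodes TIM-3, a receptor of galectin-9, CEACAM1 and HMGB1 that is best known on exhausted T cells and is also carried by mature NK cells. Its gene spans chr11:46454931-46481255 (mm10). Its transcripts fell 3.01-fold in WT and 2.03-fold in CIS KO cells after 24 h of TGFB1, and no fall was called in TGFBRII KO cells. In WT the unstimulated libraries had 175, 167, 148 and 162 CPM, those at 4 h had 143 and 138, and those at 24 h had 60.4, 61.5, 44.7 and 46.0. The 4 WT libraries at 24 h lay below all other 27 libraries. The log2 fold change was -1.59 ± 0.15 at 24 h (edgeR adjusted p = 3.19e-10) and -0.22 ± 0.17 at 4 h (adjusted p = 0.448).

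TGFBRII KO cells had 161, 216 and 148 CPM of Havcr2 unstimulated, 189, 243 and 237 at 4 h and 198, 216 and 170.3 at 24 h. These groups overlapped, and the changes with TGFB1 were 0.35 ± 0.14 at 4 h (adjusted p = 0.126) and 0.15 ± 0.14 at 24 h (adjusted p = 0.938; 95% interval -0.12 to 0.43). Without unstimulated replicate 2 of this genotype the value at 4 h was called (0.53, adjusted p = 0.0369). The difference between the TGFBRII KO and WT responses at 24 h was itself called, at 1.74 ± 0.21 (adjusted p = 1.39e-07). At 24 h the knockout was 3.61-fold above WT, with a log2 difference of 1.85 ± 0.16 (adjusted p = 1.98e-11). At 4 h it was 0.67 ± 0.18 above WT (adjusted p = 0.00911), a call lost without WT replicate 4 (0.64, adjusted p = 0.15) or without knockout replicate 2 (0.58, adjusted p = 0.0505). Wherever 1 of the 2 WT libraries at 4 h is left out, for Havcr2 and the other receptors, the lone library is assumed to vary like the libraries of the other groups. Unstimulated cells of these genotypes overlapped, at 0.11 ± 0.13 (adjusted p = 0.88).

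CIS KO cells had 193, 219, 263 and 189 CPM unstimulated, 189.8, 212, 218 and 225 at 4 h and 90.6, 127, 104 and 88.8 at 24 h. All 4 libraries at 24 h lay below the other 8 of this genotype and above all WT libraries at 24 h. Havcr2 fell in CIS KO cells by 24 h, at -1.02 ± 0.14 (adjusted p = 6.85e-07), and by 1.19 on the log2 scale without the library that stood apart (adjusted p = 1.59e-07). The level at 24 h exceeded WT by 0.98 ± 0.16 (adjusted p = 0.000176), or 0.81 without that library (adjusted p = 0.00558). Whether the fall itself was smaller than in WT did not pass the test, with a difference of 0.57 ± 0.21 (adjusted p = 0.191, 95% interval 0.16 to 0.97). Unstimulated CIS KO cells were above WT by 0.41 ± 0.13 (adjusted p = 0.0494), close to the threshold, and with alike pairs counted as 1 library this became 0.38 (adjusted p = 0.105). It was also lost without any 1 of WT replicates 2, 3 and 4 or CIS KO replicates 1, 2 and 3, at 0.34 to 0.45 (adjusted p = 0.0702 to 0.205). With library depth as a covariate the call was lost as well (0.43, adjusted p = 0.151). The change at 4 h in CIS KO cells was -0.04 ± 0.13 (adjusted p = 0.894).

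**Figure D1:**
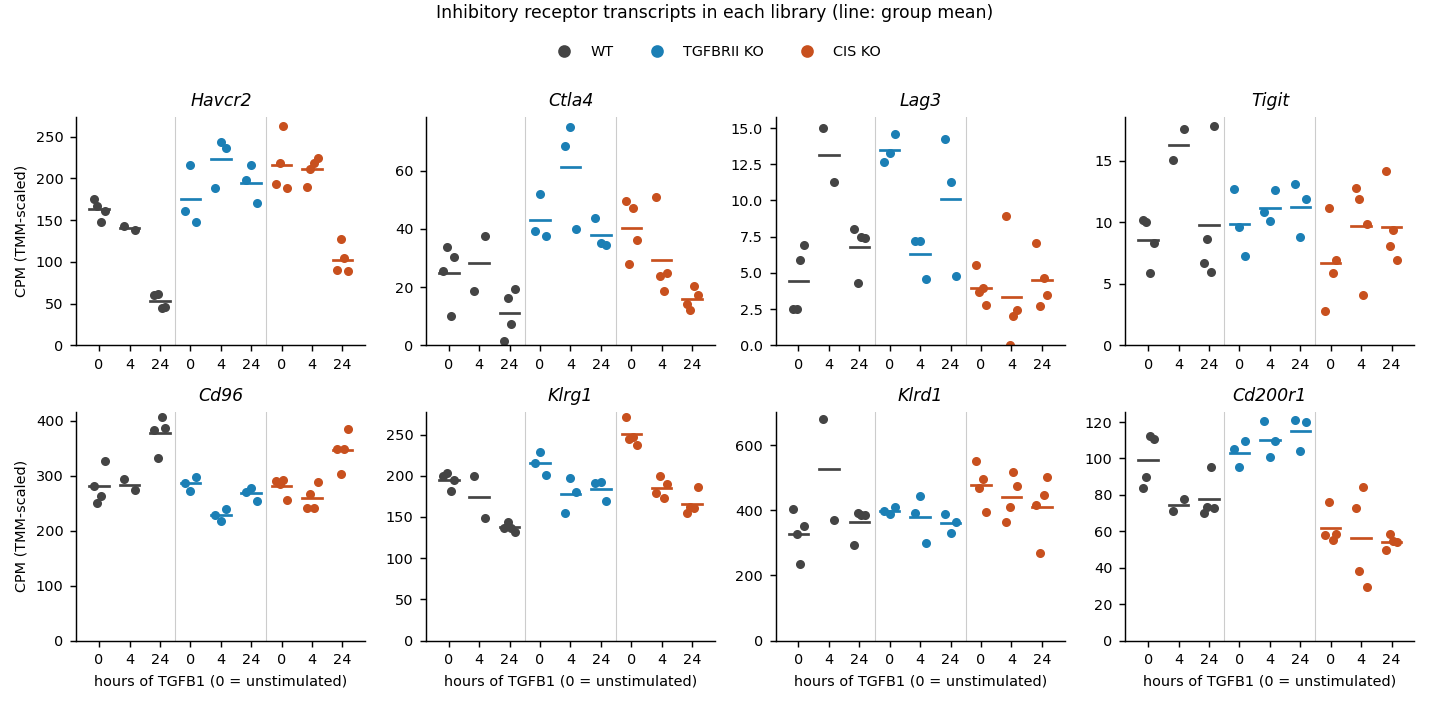
CPM of the 8 tested receptors in every library (points) with group means (lines), by hours of TGFB1 and genotype; the y axes start at 0 and differ between panels. Havcr2 is low in WT at 24 h and intermediate in CIS KO at 24 h, Cd96 is high in both, and unstimulated CIS KO libraries have less Cd200r1 than unstimulated WT ones.

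Ctla4 encodes CTLA-4, which competes with the costimulatory receptor CD28 for the ligands CD80 and CD86 and is best known on regulatory and activated T cells. The gene lies at chr1:60909025-60915832. Counts were low, from 1 to 57 per library. WT libraries held 25.4, 33.7, 10.1 and 30.4 CPM unstimulated, 18.8 and 37.6 at 4 h and 1.34, 16.2, 7.45 and 19.3 at 24 h. TGFBRII KO libraries held 39.3, 51.8 and 37.7 CPM unstimulated, 68.6, 74.9 and 40.0 at 4 h and 43.9, 35.2 and 34.5 at 24 h. CIS KO libraries held 49.7, 27.8, 47.1 and 36.1 CPM unstimulated, 50.9, 23.8, 18.5 and 24.7 at 4 h and 14.2, 12.1, 20.3 and 17.4 at 24 h. All 4 WT libraries at 24 h were below all 9 TGFBRII KO libraries, while WT values at 24 h overlapped the unstimulated WT values.

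At 24 h Ctla4 was 3.34-fold higher in TGFBRII KO than in WT cells, with a log2 difference of 1.74 ± 0.41 (adjusted p = 0.0015). It fell in CIS KO cells at 24 h, with a log2 change of -1.36 ± 0.38 (adjusted p = 0.00894), a call lost without the library that stood apart (-1.18, adjusted p = 0.0507). In WT the change at 24 h was -1.06 ± 0.42 and just missed the threshold (adjusted p = 0.0657). DESeq2 called that change at -1.12 (adjusted p = 0.0399), and it was also called without WT unstimulated replicate 3 (-1.40, adjusted p = 0.0102), WT 24 h replicate 2 (-1.36, adjusted p = 0.0466) or WT 24 h replicate 4 (-1.39, adjusted p = 0.0322). The difference between the TGFBRII KO and WT responses at 24 h was 0.88 ± 0.54 (adjusted p = 0.361). The 2 knockouts' unstimulated levels stood above WT by 0.86 ± 0.34 in TGFBRII KO (adjusted p = 0.401) and 0.73 ± 0.35 in CIS KO (adjusted p = 0.179).

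Pdcd1 encodes PD-1, a receptor for PD-L1 and PD-L2, and lies at chr1:94038305-94052553. A single count was found, in 1 of 31 libraries (unstimulated CIS KO). That is below the limit of 3 counts, or 0.133 CPM over all libraries together, which covers counting error only, and no comparison was made.

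Lag3 encodes LAG-3, a CD4-like receptor of MHC class II, at chr6:124904359-124912434. Between 0 and 12 counts were found per library. WT libraries held 2.54, 2.50, 5.87 and 6.91 CPM unstimulated, 15.0 and 11.3 at 4 h and 8.06, 4.32, 7.45 and 7.42 at 24 h. TGFBRII KO libraries held 12.7, 13.3 and 14.6 CPM unstimulated, 7.23, 7.20 and 4.57 at 4 h and 14.2, 11.3 and 4.76 at 24 h. CIS KO libraries ran 2.77 to 5.52 CPM unstimulated, 0 to 8.91 at 4 h and 2.70 to 7.08 at 24 h. In WT both libraries at 4 h were above the unstimulated ones, and in TGFBRII KO all 3 at 4 h were below.

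The fitted log2 changes of Lag3 at 4 h were 1.41 ± 0.56 in WT (adjusted p = 0.0968) and -1.09 ± 0.46 in TGFBRII KO (adjusted p = 0.147). Neither passed the test alone, and their difference did, at -2.50 ± 0.73 (adjusted p = 0.0281). That call rests on few counts and on 2 WT libraries. It was lost without WT 4 h replicate 1 (-2.37, adjusted p = 0.0835), without WT 4 h replicate 4 (-2.78, adjusted p = 0.0963), without TGFBRII KO 4 h replicate 3 (-2.30, adjusted p = 0.0751), without WT unstimulated replicate 2 (-2.32, adjusted p = 0.0537) and with the replicate number as a block (-2.38, adjusted p = 0.0584). Unstimulated TGFBRII KO cells were above WT in every library, at 1.54 ± 0.44, which did not pass the test (adjusted p = 0.179). CIS KO cells at 4 h stood at -1.52 ± 0.62 relative to WT (adjusted p = 0.433).

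Tigit and Cd96 encode paired receptors of nectin-family ligands such as CD155 (Pvr), which they share with the activating receptor CD226. Tigit, at chr16:43626137-43665125, had 1 to 14 counts per library. Its WT libraries held 10.2, 9.99, 5.87 and 8.29 CPM unstimulated, 15.0 and 17.5 at 4 h and 6.71, 8.63, 5.96 and 17.8 at 24 h. Across the TGFBRII KO groups it ran 7.29 to 12.7, 10.1 to 12.6 and 8.79 to 13.1 CPM, and across the CIS KO groups 2.76 to 11.1, 4.12 to 12.7 and 6.96 to 14.2. The difference of greatest size among the 16 comparisons was that of WT at 4 h, 0.99 ± 0.44, and it did not pass the test (adjusted p = 0.142, 95% interval 0.12 to 1.86). No change of Tigit was detectable at this depth.

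Cd96 rose where Havcr2 fell, in WT and CIS KO cells at 24 h. The gene, at chr16:46035652-46120248, had 78 to 450 counts per library. WT libraries held 282, 249.7, 262 and 327 CPM unstimulated, 293 and 274 at 4 h and 383, 332, 407 and 387 at 24 h. CIS KO libraries held 290.0, 286, 293 and 255 CPM unstimulated, 242, 266, 241 and 289 at 4 h and 348, 303, 349 and 385 at 24 h. In both genotypes all 4 libraries at 24 h were above the unstimulated ones. Cd96 rose at 24 h by 0.43 ± 0.09 in WT (adjusted p = 7e-04), or 1.35-fold, and by 0.30 ± 0.10 in CIS KO (adjusted p = 0.0245). The rise in CIS KO cells was lost in 8 of 16 alternative analyses, among them DESeq2 (0.28, adjusted p = 0.0746) and the fit with alike pairs counted as 1 library (0.31, adjusted p = 0.059). It was also lost without unstimulated CIS KO replicate 2, 3 or 4 or CIS KO 24 h replicate 4, at 0.25 to 0.32 (adjusted p = 0.0568 to 0.0866).

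TGFBRII KO cells had 287, 272 and 298 CPM of Cd96 unstimulated, 229, 217 and 240.1 at 4 h and 271, 278 and 255 at 24 h. The values at 4 h lay below the unstimulated ones, at -0.32 ± 0.11 (adjusted p = 0.0714), and those at 24 h overlapped them, at -0.10 ± 0.11 (adjusted p = 0.968). The 4 h change was called with depth as a covariate (-0.32, adjusted p = 0.00601) or library size alone for scaling (-0.33, adjusted p = 0.0286). A fit of only the groups compared called it too (-0.30, adjusted p = 0.0206). The TGFBRII KO response at 24 h minus that of WT was -0.52 ± 0.14 (adjusted p = 0.0129), which became adjusted p = 0.0524 with no filter on low counts. At 24 h the TGFBRII KO level was lower than that of WT, with a difference of -0.49 ± 0.10 (adjusted p = 0.000358), with no overlap between libraries. CIS KO minus WT at 24 h was -0.13 ± 0.09 (adjusted p = 0.576).

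**Figure D2:**
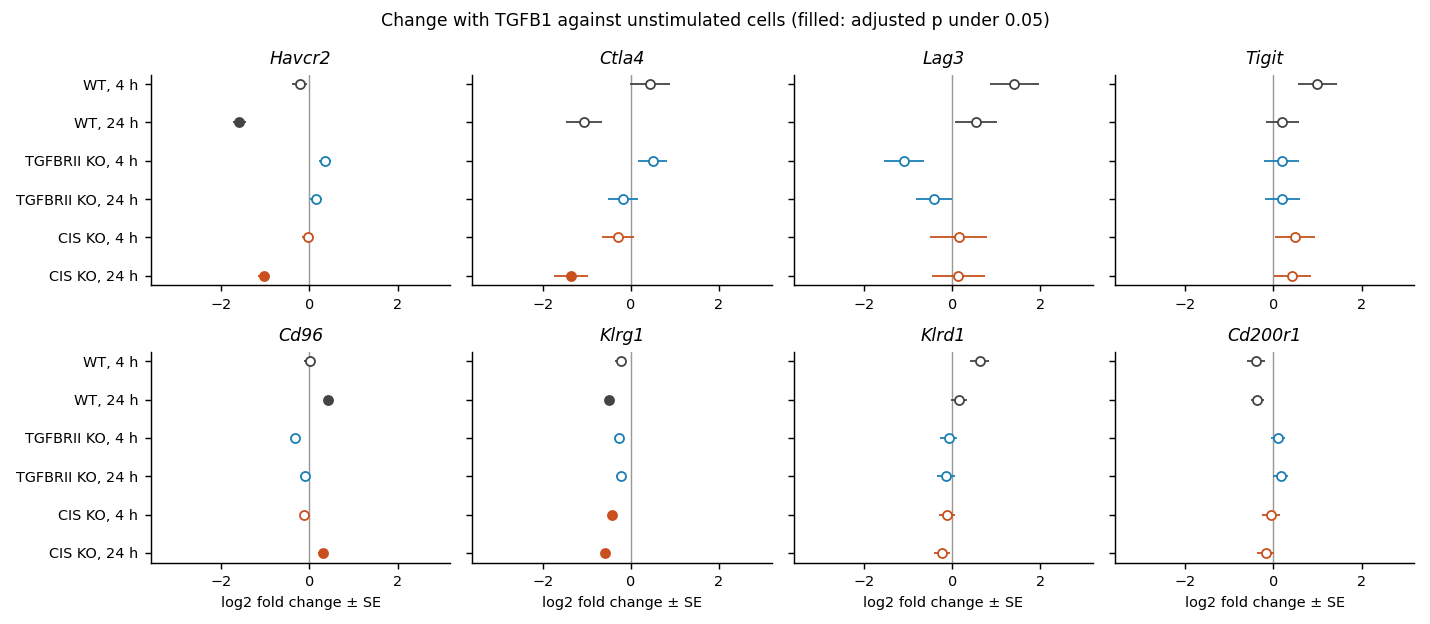
Log2 fold change with TGFB1 against unstimulated cells of the same genotype (x axis; bars are 1 SE) for each receptor, with filled points at an adjusted p under 0.05. Filled points are Havcr2, Klrg1 and Cd96 in WT at 24 h, the same genes and Ctla4 in CIS KO at 24 h, and Klrg1 in CIS KO at 4 h; none is in TGFBRII KO.

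Klrg1, Klrd1 and Klrc1 encode receptors of the C-type lectin family, and all 3 genes lie on chromosome 6. KLRG1 binds cadherins such as E-cadherin (Cdh1) and marks the most mature NK cells. Klrg1, at chr6:122270596-122282833, had 53 to 240 counts per library. WT libraries held 199.5, 203, 182 and 195 CPM unstimulated, 199 and 149 at 4 h and 137, 144, 137 and 132 at 24 h. CIS KO libraries held 271, 245, 247 and 237 CPM unstimulated, 179.6, 199.7, 173 and 190.3 at 4 h and 154, 162, 161 and 186 at 24 h. TGFBRII KO libraries held 215, 229 and 200.5 CPM unstimulated, 155, 197 and 181 at 4 h and 191, 192 and 169 at 24 h. The unstimulated libraries were the highest of each genotype, with an overlap in WT at 4 h alone, by replicate 1 of WT at 4 h.

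Klrg1 fell at 24 h, with a log2 change of -0.50 ± 0.09 in WT (adjusted p = 0.000114), 1.41-fold lower, and -0.59 ± 0.09 in CIS KO (adjusted p = 1.4e-05). In CIS KO cells it had already fallen at 4 h, at -0.43 ± 0.10 (adjusted p = 0.00204). The WT change at 4 h was -0.23 ± 0.12 (adjusted p = 0.239), and was called with library size alone for scaling (-0.33, adjusted p = 0.0475). The CIS KO response at 4 h minus that of WT did not pass the test, at -0.20 ± 0.16 (adjusted p = 0.761). The values in TGFBRII KO were -0.28 ± 0.10 at 4 h (adjusted p = 0.095) and -0.22 ± 0.10 at 24 h (adjusted p = 0.641). The differences of response between knockout and WT did not pass the test, at 0.27 ± 0.14 for TGFBRII KO at 24 h (adjusted p = 0.242, 95% interval 0.00 to 0.55) and -0.09 ± 0.13 for CIS KO at 24 h (adjusted p = 0.768). At 24 h the TGFBRII KO level was above that of WT by 0.42 ± 0.10 (adjusted p = 0.00209). Unstimulated CIS KO cells were above WT by 0.35 ± 0.09 (adjusted p = 0.0237), with adjusted p = 0.0547 where alike pairs count as 1 library. That call was lost without WT replicate 3 (0.32, adjusted p = 0.126), CIS KO replicate 1 (0.32, adjusted p = 0.0939) or CIS KO replicate 3 (0.40, adjusted p = 0.0631). It was also lost with library depth as a covariate (0.26, adjusted p = 0.184).

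Klrd1 encodes CD94, the common partner of the NKG2 receptors, at chr6:129588092-129598775. It ran 234 to 404 CPM in unstimulated WT, 680.2 and 371 in the pair of WT libraries at 4 h, and 293 to 391 in WT at 24 h. TGFBRII KO groups ran 388 to 411, 301 to 445 and 329 to 389 CPM, and CIS KO groups 394 to 552, 366 to 517 and 268 to 503. No comparison was called. The closest were WT at 4 h, 0.62 ± 0.22 (adjusted p = 0.0558), and unstimulated CIS KO against WT, 0.54 ± 0.18 (adjusted p = 0.0573). DESeq2 called both, at 0.67 (adjusted p = 0.046) and 0.55 (adjusted p = 0.0367). With single libraries left out, the first was called without WT unstimulated replicate 1 (0.74, adjusted p = 0.0266) or WT 4 h replicate 4 (1.06, adjusted p = 0.00777), which leaves 1 library at 4 h. The second was called without WT replicate 1 (0.65, adjusted p = 0.03) or CIS KO replicate 4 (0.62, adjusted p = 0.0322). Without WT 4 h replicate 4 the TGFBRII KO difference from WT at 4 h was also called (-0.85, adjusted p = 0.0401), and without WT 4 h replicate 1 it was 0.03 (adjusted p = 0.979).

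Those Klrd1 values moved with library depth. Within groups, the log2 count of Klrd1 rose by 0.49 per log2 unit of depth, against 0.92 to 1.35 for the other 7 tested receptors and a median of 1.04 for tested genes with a mean of at least 50 counts. Shallow libraries thus tended to high CPM of Klrd1. The highest, WT at 4 h replicate 1 with 680 CPM, was the shallowest library of all, at 297561 counts. With depth as a covariate, an alternative chosen after seeing the data, the log2 change of Klrd1 in WT at 4 h was 0.15 (adjusted p = 0.57) and the difference of unstimulated CIS KO from WT was 0.14 (adjusted p = 0.661). Further tests of depth were not made.

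**Figure D3:**
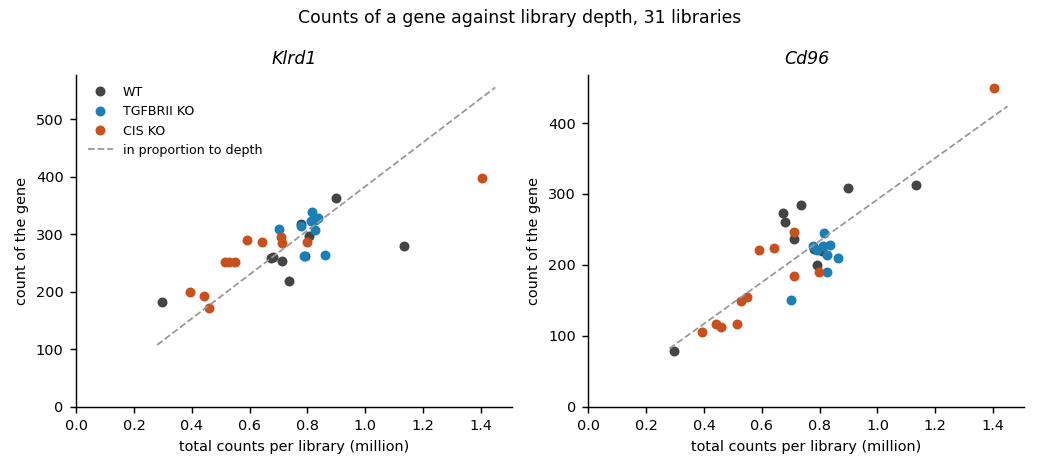
Counts of Klrd1 (left) and Cd96 (right) against total counts per library, 31 libraries colored by genotype; the dashed line is proportionality to depth. Klrd1 lies above the line in shallow libraries and below it in the deepest, whereas Cd96 follows the line more closely.

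Klrc1 encodes NKG2A, which pairs with CD94 into an inhibitory receptor of the MHC class Ib molecule Qa-1. The gene lies at chr6:129666015-129682852. It had 41 counts in all, in 23 of 31 libraries, with 0 to 5 per library and at most 4.82 CPM. The genes for its activating relatives were also low, with Klrc2 at 5.54 ± 1.16 and Klrc3 at 2.99 ± 1.29 CPM (SD, n = 4) in unstimulated WT. These genes are close in sequence, and how reads that match several of them were counted is not given in the sources used here, so their values are uncertain.

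Cd200r1 encodes the receptor of CD200, which signals through the adaptors DOK1 and DOK2 rather than through the classical inhibitory motif. The gene, at chr16:44765736-44794977, had 12 to 134 counts per library. WT libraries held 83.9, 89.9, 112 and 110.5 CPM unstimulated, 71.4 and 77.7 at 4 h and 69.8, 73.4, 95.4 and 72.7 at 24 h. TGFBRII KO libraries held 105, 95.2 and 109 CPM unstimulated, 120.4, 101 and 109.7 at 4 h and 121, 104 and 120.3 at 24 h. CIS KO libraries held 58.0, 76.1, 55.0 and 58.3 CPM unstimulated, 72.6, 38.0, 84.4 and 29.7 at 4 h and 49.5, 58.7, 54.6 and 54.0 at 24 h. The TGFBRII KO libraries at 24 h were all above the WT ones, and the CIS KO libraries were all below the WT ones in unstimulated cells and at 24 h.

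Unstimulated CIS KO cells held less Cd200r1 than WT, at -0.69 ± 0.17 (adjusted p = 0.0192), 1.61-fold lower. This call was lost without unstimulated CIS KO replicate 1 (-0.67, adjusted p = 0.0687), CIS KO replicate 3 (-0.60, adjusted p = 0.0887) or WT replicate 3 (-0.61, adjusted p = 0.114). It was also lost with depth as a covariate (-0.55, adjusted p = 0.156). Every unstimulated CIS KO library was shallower than every unstimulated WT library, so depth and genotype cannot be told apart here. At 24 h the CIS KO difference was -0.49 ± 0.17 (adjusted p = 0.109). TGFBRII KO cells at 24 h held more Cd200r1 than WT, at 0.57 ± 0.16 (adjusted p = 0.00742). The change of WT cells at 24 h was -0.37 ± 0.15 and did not pass the test (adjusted p = 0.0827), though it did without WT unstimulated replicate 1 (-0.44, adjusted p = 0.0473) or WT 24 h replicate 3 (-0.47, adjusted p = 0.0375). The difference of the TGFBRII KO response from it did not pass either, at 0.53 ± 0.22 (adjusted p = 0.139).

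**Figure D4:**
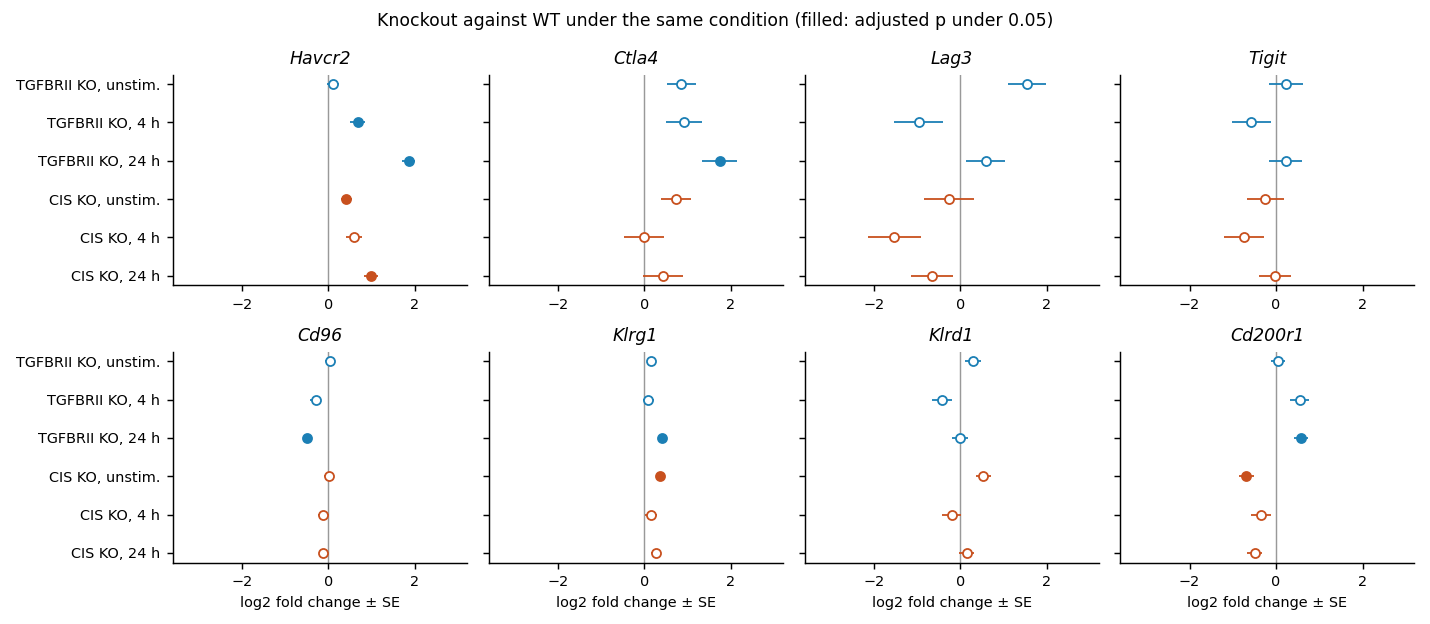
Log2 difference of each knockout from WT under the same condition (x axis; bars are 1 SE), with filled points at an adjusted p under 0.05. At 24 h of TGFB1 Havcr2, Ctla4, Klrg1 and Cd200r1 are higher and Cd96 is lower in TGFBRII KO than in WT, and in CIS KO only Havcr2 is called.

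The counts of called receptors are read against the share of all 10275 genes called by the same rule. In WT at 24 h, 3 of 8 were called (Cd96 higher, Havcr2 and Klrg1 lower) against 21.1% of genes, with 9.63% higher and 11.5% lower. In CIS KO at 24 h, 4 of 8 were called (Cd96 higher, Havcr2, Ctla4 and Klrg1 lower) against 24% of genes, with 12.3% higher and 11.7% lower. In CIS KO at 4 h, Klrg1 was lower, against 14.1% of genes called, 7.76% higher and 6.3% lower. The median log2 change of the 8 receptors at 24 h was -0.10 in WT and -0.20 in CIS KO, beside 0.03 and 0.04 for all genes. With 8 receptors, each gene is a large part of such a share.

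No receptor was called by edgeR in WT at 4 h, where 11.9% of genes were, or in TGFBRII KO at 4 h (8.02% of genes) and 24 h (0.0195% of genes). The receptors with an unadjusted p under 0.05 in these comparisons numbered 3, 4 and 1, beside 2781, 2222 and 730 of 10275 genes. DESeq2 called 1, 0 and 0 receptors, beside 898, 434 and 0 genes. The 2 genes called by edgeR in TGFBRII KO at 24 h over the whole table were not among the receptors. In the TGFBRII KO cells at 4 h, 2 receptors (Cd96 and Klrg1, both lower) were called when depth was a covariate or library size alone was used for scaling.

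TGFBRII KO against WT called 0 receptors in unstimulated cells (0.146% of genes). There 2 receptors and 929 of 10275 genes had an unadjusted p under 0.05, and DESeq2 called 0 receptors and 10 genes. At 4 h TGFBRII KO against WT called Havcr2, against 11.8% of genes, 5.63% higher and 6.17% lower. At 24 h it called 5 of 8 receptors, against 21.6% of genes, 11.5% higher and 10.1% lower. The median difference of the 8 receptors at 24 h was 0.50, beside -0.03 for all genes. This comparison and the WT response at 24 h share the WT libraries at 24 h, so their values are not independent.

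CIS KO against WT called 3 of 8 receptors in unstimulated cells, against 6.15% of genes, 3.19% higher and 2.96% lower. Leaving out CIS KO replicate 1, CIS KO replicate 3 or WT replicate 3 left 0 called, and so did depth as a covariate. Every unstimulated CIS KO library (392266 to 711659 counts) was shallower than every unstimulated WT library (712432 to 1135104 counts). Depth and genotype thus cannot be told apart in unstimulated cells. At 4 h CIS KO against WT called none (0.273% of genes). There 2 receptors and 895 of 10275 genes had an unadjusted p under 0.05, and DESeq2 called 0 receptors and 16 genes. At 24 h CIS KO against WT called Havcr2, against 3.27% of genes, 2.22% higher and 1.05% lower. With depth as a covariate it also called Klrg1 (0.29, adjusted p = 0.0447) and Cd200r1 (-0.55, adjusted p = 0.0373).

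Among the differences of response, TGFBRII KO minus WT called Lag3 at 4 h, against 7.57% of genes, 3.96% higher and 3.61% lower. At 24 h it called Havcr2 and Cd96, against 10.8% of genes, 6.89% higher and 3.86% lower. CIS KO minus WT called no receptor at 4 h, where 0% of genes were called by edgeR and 0 by DESeq2, although 874 genes and 1 receptor (Klrd1) had an unadjusted p under 0.05. At 24 h it again called no receptor, against 1.33% of genes. Havcr2 was the only receptor with an unadjusted p under 0.05, beside 1491 of 10275 genes. DESeq2 called 0 receptors and 104 genes there.

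Over the 9 group means of log2 CPM, Havcr2 and Ctla4 ran together (Pearson r = 0.91), and both ran against Cd96 (r = -0.92 and -0.89). Havcr2 and Klrg1 had r = 0.76, Lag3 and Tigit 0.66, and Klrd1 and Cd200r1 -0.57. These values describe 9 points that share libraries and scaling. Among all tested genes with a symbol and at least 5 CPM, the pattern most like that of Havcr2 was that of Nars (r = 0.974), then Crem (0.972) and Rfc3 (0.966). For Cd96 these were Aldh16a1 (0.977), Gaa (0.972) and Mturn (0.965), for Klrg1 Bet1 (0.983), Cs (0.965) and Mrpl32 (0.961), and for Ctla4 Gramd3 (0.971), Stk39 (0.971) and Spin4 (0.965). Cd200r1 ran most like Smad3 (0.980), Gng12 (0.974) and Ccrl2 (0.971). For Klrd1 they were Snhg8 (0.973), Plac8 (0.972) and Rpl22l1 (0.967). The low-count genes Lag3 and Tigit were most like Spindoc (0.921) and H2-Q4 (0.928).

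Ligands of the receptors were also transcribed by the NK cells, and 9 of 17 listed had enough counts. In WT at 24 h 1 was higher and 2 lower, where 9.63% of all genes were higher and 11.5% lower. Cdh1, the KLRG1 ligand E-cadherin, went from 6.06 ± 2.63 to 32.9 ± 2.86 CPM (SD, n = 4), a log2 rise of 2.37 ± 0.34 (adjusted p = 1.67e-06). Ceacam1, a ligand of TIM-3 and itself an inhibitory receptor, had a log2 change of -1.62 ± 0.30 and Pdcd1lg2, which encodes PD-L2, of -0.64 ± 0.12. In CIS KO at 24 h, where 12.3% of all genes were higher and 11.7% lower, 1 ligand was higher, Cdh1 at 1.54 ± 0.33, and 3 were lower, including Pdcd1lg2 at -0.47 ± 0.13 and Ceacam1 at -0.94 ± 0.30. In TGFBRII KO no ligand was called at 4 h (8.02% of all genes) or 24 h (0.0195%). The 24 h responses of Cdh1, Ceacam1 and Pdcd1lg2 differed between TGFBRII KO and WT, at -2.47 ± 0.63, 1.60 ± 0.40 and 0.68 ± 0.17. At 4 h WT cells, with 2 libraries, had higher Hmgb1 (0.73 ± 0.20) and Lgals9 (0.58 ± 0.16), which encode further ligands of TIM-3. No other ligand was called there, where 6.9% of all genes were higher and 5.03% lower. In TGFBRII KO, where neither was called, Hmgb1 averaged 48.3 CPM unstimulated and 60.6 at 4 h, and Lgals9 98.6 and 79.3.

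Of 19 genes for molecules that carry inhibitory or linked signals, 18 were tested. WT cells had 4 higher and 3 lower at 24 h, against 21.1% of all genes called. CIS KO cells had 3 higher and 5 lower at 24 h, against 24% of all genes. TGFBRII KO cells had none at 4 h, against 8.02%, or at 24 h, against 0.0195%. Ptpn6, which encodes SHP-1, rose from 227 ± 20.2 to 367 ± 47.0 CPM in WT (0.69 ± 0.11) and by 0.81 ± 0.12 in CIS KO. Inpp5d, which encodes SHIP-1, rose by 0.46 ± 0.10 in WT. Cblb, which encodes a ubiquitin ligase that restrains activating signals, changed by -0.78 ± 0.11 in CIS KO. Dok2, the adaptor of CD200R1, fell from 188 ± 22.2 to 83.3 ± 10.3 CPM in WT (-1.16 ± 0.11), with a change of -1.42 ± 0.11 in CIS KO, and it was already lower at 4 h, at -1.03 ± 0.15 and -1.40 ± 0.12. The 24 h responses of Ptpn6 and Dok2 differed between TGFBRII KO and WT, at -0.71 ± 0.17 (adjusted p = 0.00399) and 1.10 ± 0.15 (adjusted p = 2.06e-06).

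A list of other inhibitory receptors, outside the 10, was followed in the same way. Of 13 tested at 24 h, WT had 2 higher and 5 lower, against 21.1% of all genes called, and CIS KO 1 higher and 6 lower, against 24%. Lair1, a collagen receptor, went from 88.1 ± 12.0 CPM unstimulated to 28.8 ± 3.54 at 4 h (n = 2) and 30.9 ± 7.70 at 24 h in WT, with a log2 change of -1.47 ± 0.17 at 24 h. Lilrb4a changed by -1.10 ± 0.17 in WT and was 1.20 ± 0.18 above WT in TGFBRII KO cells at 24 h. Klrb1b, which encodes an inhibitory receptor of the NKR-P1 family, rose by 0.68 ± 0.10 in WT. Ly9, a receptor of the SLAM family, changed by -1.38 ± 0.23 in CIS KO. TGFBRII KO against WT at 24 h had 6 of 13 higher and 1 lower, against 21.6% of all genes called. In TGFBRII KO cells 1 of 13 rose at 4 h, Lilrb4a (0.53 ± 0.16), against 8.02% of all genes called, and 0 were called at 24 h, against 0.0195%.

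Activating receptors and adaptors that act beside the 10 were followed too. Of 12 tested, WT at 24 h had 0 higher and 2 lower (Cd28 at -0.35 ± 0.12 and Crtam at -0.44 ± 0.15), against 21.1% of all genes called. CIS KO at 24 h had 4 lower and 0 higher, against 24% of all genes, among them Crtam at -1.01 ± 0.20 and Cd2 at -1.19 ± 0.26. CRTAM is an activating receptor of the nectin-like family, and CD2 binds CD48. Of 16 tested transcription factors linked to NK maturation or exhaustion, WT at 24 h had Runx3 higher (0.58 ± 0.11) and Maf (-1.14 ± 0.16) and Eomes (-0.32 ± 0.10) lower, against 21.1% of all genes called. CIS KO at 24 h had 5 lower and 0 higher, against 24% of all genes, with Maf at -1.12 ± 0.19, Batf at -0.81 ± 0.15 and Eomes at -0.41 ± 0.10. In TGFBRII KO 4 were higher and 1 lower at 4 h, against 8.02% of all genes called, and none was called at 24 h, against 0.0195%.

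Cish, the gene deleted in CIS KO cells, stood at 25.2 ± 6.76 CPM in unstimulated CIS KO against 158 ± 21.6 in WT (SD, n = 4 each). Tgfbr2 stood at 229.7 ± 8.18 CPM in unstimulated TGFBRII KO (n = 3) against 213 ± 26.6 in WT, and a count over the whole gene does not check a deletion of part of it. NK cell markers were present in every group, and their summed level ran from 2060 to 4440 CPM. In WT it ran from 2620 to 3200 CPM unstimulated and 2380 to 2780 at 24 h. In CIS KO it ran from 3060 to 4440 and 2060 to 2860 CPM, without overlap. In TGFBRII KO it ran from 3100 to 3130 and 3000 to 3120 CPM. Of 8 tested NK markers, 3 were lower in WT at 24 h and 5 in CIS KO, against 11.5% and 11.7% of all genes. None was higher there, and none was called in TGFBRII KO at 24 h, against 0.0195%. Of the markers of other cells, B cell genes summed to 0 to 4.99 CPM, and the T cell genes Cd4, Cd8a, Cd8b1 and Cd5 were at most 4.12 CPM in any library. The summed T cell list ran from 398 to 422 CPM in unstimulated WT, 309 to 392 in WT at 24 h, 423 to 475 in TGFBRII KO at 24 h and 310 to 371 in CIS KO at 24 h. It was carried by Cd3g, Cd3d, Bcl11b and Lef1. The list of 5 regulatory T cell genes, which includes Ctla4, summed to 146 to 167 CPM in unstimulated WT, 59.1 to 135 in WT at 24 h, 141 to 171 in unstimulated CIS KO, 97.5 to 140 in CIS KO at 24 h and 138 to 192 in TGFBRII KO at 24 h. In unstimulated TGFBRII KO the list summed to 192 to 197 CPM. Its defining gene Foxp3 was at most 1.49 CPM in any library. Of its 3 tested genes, Il2ra, which encodes a chain of the interleukin-2 receptor, was lower after 24 h of TGFB1, by log2 changes of -0.93 ± 0.19 for WT and -0.63 ± 0.20 for CIS KO, and higher in TGFBRII KO than in WT at 24 h (0.80 ± 0.20). Ctla4 was called beside it in the last 2 of these comparisons, and Ikzf2 in none of the 3. The part of these lists in the differences of Havcr2, Klrg1, Ctla4 and Lag3 was not tested. The myeloid list (186 to 367 CPM) was carried by Itgax and Xcr1, with Lyz2, Csf1r and Adgre1 at most 3.76 CPM, and the stromal and epithelial list (264 to 487 CPM) by Pecam1 and Epcam, with Col1a1 at most 1.48. The summed list of type 1 innate lymphoid cells, which includes Cd200r1, ran from 628 to 687 CPM in unstimulated WT, 820 to 936 in WT at 24 h and 563 to 591 in TGFBRII KO at 24 h. The same list ran from 610 to 645 CPM in unstimulated TGFBRII KO, 579 to 630 in unstimulated CIS KO and 825 to 923 in CIS KO at 24 h. Among its genes Itga1 averaged 202 CPM in unstimulated WT and 356 in WT at 24 h. In bulk RNA, fewer cells of a type and less RNA per cell cannot be told apart.

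Y-linked transcripts differed between genotypes, with sums of 1.38 to 124 CPM in WT, 187 to 451 in TGFBRII KO and 392 to 558 in CIS KO libraries. The make-up of the samples by sex and the genotype cannot be told apart in the knockout against WT comparisons, including the unstimulated differences of Havcr2, Klrg1 and Cd200r1. Within WT these sums ran from 1.38 to 91.1 CPM unstimulated and from 1.48 to 124 at 24 h.

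Of the 21 differences called among the receptors, 13 were kept under every alternative tried. All 342 alternative values kept their direction, and 36 no longer passed the threshold. The 13 comprise Havcr2 in WT and in CIS KO at 24 h, in both knockouts against WT at 24 h and in the TGFBRII KO difference of response at 24 h. They also comprise Cd96 in WT at 24 h and in TGFBRII KO against WT at 24 h, Klrg1 in WT at 24 h, in CIS KO at 4 h and 24 h and in TGFBRII KO against WT at 24 h, and Ctla4 and Cd200r1 in TGFBRII KO against WT at 24 h.

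**Figure D5:**
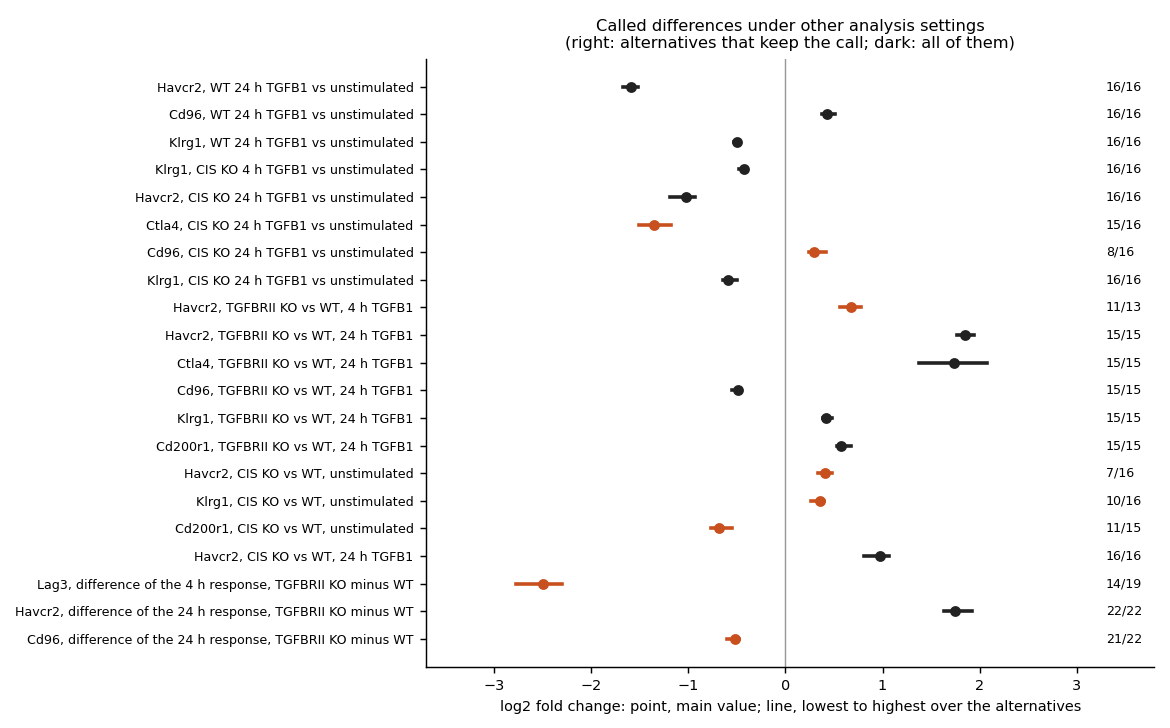
Each of the 21 called differences (rows), with its main log2 fold change (point) and the lowest to highest value over the alternative analyses (line); numbers at the right give the alternatives that kept the call. The 13 dark rows kept it in all, and the lowest share is that of Havcr2 in unstimulated CIS KO against WT, at 7 of 16.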

How the data were processed

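The deposited table holds raw counts per gene, made by the authors from reads of 31 libraries and not normalized. FastQC, Trimmomatic, Subread, featureCounts, Picard and SAMtools were used with mm10, per the submitters' processing notes, without versions or roles. Settings for strand, multi-mapping reads and duplicates are not given there. Libraries were made from total RNA with a directional kit, per the labels' protocols. Each of the 31 columns matched 1 sample title. Symbols for 25275 of 27179 Entrez identifiers and all coordinates came from RefSeq GRCm38.p6, and exon lengths from GENCODE M21.

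Differences were fitted in edgeR 4.0.16 (R 4.3.3), with filterByExpr on the 9 groups (10275 genes kept), TMM scaling, all 31 libraries in 1 fit because WT at 4 h had 2, quasi-likelihood F-tests with Benjamini-Hochberg adjustment over all genes, and calls at an adjusted p under 0.05. SE is the log2 fold change divided by the square root of F, and 95% intervals are 1.96 SE. Replicate spread is that between libraries labelled biological replicates. Group means are ± SD of CPM. The fit was tested on simulated data. Alternatives were DESeq2 1.42.0, RLE or library-size scaling, no filter, only the groups compared, a replicate block and each library left out. The block was genotype with replicate number for responses and their differences, and the number alone for knockout against WT. The sample titles do not say that equal numbers of different genotypes belong together. Depth as a covariate and 3 alike pairs counted as 1 library were chosen after seeing the data.

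The receptors and the lists of partner genes and markers were chosen with earlier results of these data known. By the rule for named genes, all 10 receptors, up to 3 called genes of each other list per comparison with the smallest p, and the 3 genes most like each receptor could be named. Tgfbr2, Cish, marker genes and paralogs were named as checks.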

Additional observations from a re-analysis of the deposited data

Results flagged for a closer look

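In 3 receptors the response to TGFB1 differed between TGFBRII KO and WT by a test of the difference itself: Havcr2 at 24 h (log2 difference 1.74), Cd96 at 24 h (-0.52) and Lag3 at 4 h (-2.50). Of all genes, 10.8% were called for this difference at 24 h and 7.57% at 4 h. The call was kept in 22 of 22 alternatives for Havcr2, 21 of 22 for Cd96 and 14 of 19 for Lag3. That of Lag3 rests on 0 to 12 counts per library and on 2 WT libraries at 4 h. Dixon's test over 40 groups of 4 libraries of the 8 tested receptors set 4 libraries apart, where chance gives about 1 in 20 groups. WT at 24 h held 3 of them, in different libraries: Lag3 at 4.32 CPM in replicate 2, Klrd1 at 292.7 CPM in replicate 1, both lowest, and Cd200r1 at 95.4 CPM in replicate 3, the highest. The fourth was Cd200r1 at 76.1 CPM in unstimulated CIS KO replicate 2, the highest of that group.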

How the results depend on the processing

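Scaling by other factors moved the median of all genes by less than 0.1 on the log2 scale in every comparison. DESeq2 gave no adjusted p for 6 values, among them Cd200r1 in unstimulated CIS KO against WT and the Lag3 difference of response at 4 h, and these are not counted as lost. The numbers of called receptors changed by more than 1.5 times in 7 comparisons. In WT at 4 h (main value 0), DESeq2, library size alone and no filter each called 1, and leaving out a library gave 0 to 1. In TGFBRII KO at 4 h (0), the depth covariate and library size alone called 2, the fit of only the groups compared 1, and leaving out a library gave 0 to 1. For TGFBRII KO against WT at 4 h (1), no filter gave 2 and leaving out a library 0 to 1. For unstimulated CIS KO against WT (3), the depth covariate gave 0, alike pairs counted as 1 library gave 1, and leaving out a library gave 0 to 4. For CIS KO against WT at 24 h (1), the depth covariate gave 3. For the TGFBRII KO difference of response at 4 h (1), DESeq2 gave 0, no filter 2 and leaving out a library 0 to 2. At 24 h (2), no filter gave 1. The direction changed for uncalled values alone, and those that no alternative called are not listed here. Klrd1 in TGFBRII KO against WT at 4 h went from -0.42 to 0.012 with the depth covariate and ran from -0.85 to 0.028 with single libraries left out. Klrg1 in WT at 4 h went from -0.23 to a range of -0.374 to 0.035. The causes were not tested. Over 29 pairs of the same genotype and number, deviations from group means had a median correlation of 0.03 (-0.388 to 0.25), with 7 pairs over 0.1. Over 78 pairs of the same number and different genotypes the median was 0.001, with 11 pairs over 0.1. Within TGFBRII KO the correlations ran from 0.015 to 0.198. A median over all genotypes cannot show whether the replicate numbers pair libraries within 1 genotype. With the replicate block, 0 receptors were called for the TGFBRII KO difference of response at 4 h (Lag3 at -2.38, adjusted p = 0.0584), and Ctla4 was called in WT at 24 h (-1.18, adjusted p = 0.013). Counts were lowest for Lag3, Tigit, Ctla4, Klrc1 and Pdcd1, and low counts limit what can be seen of these genes most.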
